A study of Mus musculus with 12 samples.

Results

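The MEF2 factor genes Mef2a, Mef2b, Mef2c and Mef2d were followed peak by peak through the open chromatin of brain macrophages. Members were all ATAC-seq peaks annotated to 1 of these 4 genes as the nearest start site, 55 of 60288 peaks in untreated mice and 53 of 54953 peaks after lipopolysaccharide (LPS), or 108 of 115241 in both tables. ATAC-seq reads DNA that a transposase can reach, and the number of sequenced fragment ends in a peak, here called tags, is taken as a measure of accessibility. C57BL/6J wild-type mice were irradiated with 950 cGy, received donor bone marrow, and were studied 3.5 or 9 months later. The labels do not assign these intervals to mice, and the text of the study gives the longer one. From each brain, graft-derived cells (CD45.1) and host microglia (CD45.2) were sorted. Mice 4, 5 and 6 were untreated, and mice 1, 2 and 3 were given 2.5 mg/kg LPS and killed 12 h later, which makes 4 groups of 3 libraries. Host cells, or the cells they came from, had been irradiated in all groups, whereas the graft had not. Origin and irradiation therefore cannot be told apart.

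MEF2 proteins are transcription factors of the MADS-box family that bind an AT-rich site. Their activity is held down by class IIa histone deacetylases and raised by kinases such as p38 and ERK5 and by the phosphatase calcineurin. MEF2C is among the factors that shape the microglial programme, and MEF2A and MEF2D are expressed in many cell types. MEF2B is best known from germinal center B cells.

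Libraries held 8392877.5 to 9107770 tags in untreated mice and 2966364 to 6556594.5 after LPS, so a value after LPS carries more counting error. Peaks called in a library covered the smallest share of its tags in CD45.2 of untreated mouse 4, at 9.30%, and 13.4% to 27.2% in the other 11. Peaks of the macrophage marker genes Csf1r, Cx3cr1, Itgam and Spi1 were present in both tables. Of 4 genes that mark microglia more than other macrophages, Sall1 alone differed, with means of 111 normalised tags in CD45.1 against 1040 in CD45.2 untreated and 31.1 against 265 after LPS. P2ry12 (268 and 264 untreated), Tmem119 (207 and 233) and Siglech (251 and 292) did not pass in either table. Of 5 neuronal markers, 4 had peaks, with summed levels of 117 to 139 in CD45.1 against 176 to 216 in CD45.2 untreated, and 38.5 to 51.9 and 59.9 to 109 after LPS. Astrocyte markers stood at 67.0 to 105 and 113 to 139, and at 31.8 to 37.3 and 41.5 to 66.1. Untreated Rbfox3, Syt1 and Snap25 were higher in CD45.2 and Map2 was higher in CD45.1. After LPS Syt1, Snap25 and Map2 differed in the same directions, and Rbfox3 did not pass. Neurod6 had no peak in either table. In both tables Cd3e, Cd3g, Cd79a, Pax5, Mpo and Tek also had no peak. Other markers of T cells, neutrophils, astrocytes and oligodendrocytes had peaks that differed in untreated mice, namely Cd3d (106 against 64.8), Lck (34.5 against 66.0), S100a9 (17.5 against 39.6), Aldh1l1 (38.8 against 72.7) and Mog (118 against 214), and Mog also differed after LPS (40.7 against 83.3). Cd79b, Cldn5 and Pecam1 had peaks that did not pass in either table. The part of these differences in the results below was not tested.

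The 4 genes differ in how their peaks are placed. In GENCODE, Mef2a lies on the minus strand of chromosome 7, 74376049 to 74517744 (mm9), and 21 of its 25 untreated peaks were intergenic, in a field that reached −121.8 kb from the start site. Mef2c lies on the plus strand of chromosome 13, 83643033 to 83806684, and 19 of its 21 untreated peaks were in the gene body, from intron 1 to intron 4. No Mef2c peak of either table was annotated as a promoter. The nearest peak to the annotated start lay at 14.4 kb, and 3 untreated peaks lay at −1180, −636 and −118 bp from another GENCODE start of Mef2c at 83663976. Mef2d lies on the plus strand of chromosome 3, 87946294 to 87976008, with 6 untreated and 3 LPS peaks. Mef2b lies on the plus strand of chromosome 8, 72676677 to 72691387, with 3 peaks in each table. Its promoter peak lies in the gene model 2310045N01Rik. A coding start of that model is as near to the peak as a start of Mef2b (−77 bp for both, untreated). The peak therefore cannot be assigned to Mef2b alone. The 3 Mef2a peaks furthest upstream in each table lay nearer to the start of Lrrc28 than to that of Mef2a in GENCODE.

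The sequences of 5 peaks are shown because the largest or most reproducible results, and the untreated match to the MEF2 motif at a start site, lie in them. They were read from the plus strand of the mm9 genome, and capitals mark matches on either strand to 1 of 9 motifs searched. In the Mef2c intron 4 peak the matches are TGANNTCA, which is AP-1 with 2 spacer bases, and then TGANTCA, which has 1. In the Mef2a −58.4 kb peak the match is the CEBP motif TTGCNNAA, and in the Mef2a −52.9 kb peak they are the IRF motif GAAANNGAA and TGANTCA. The match in the Mef2c intron 3 peak is the IRF motif, and that in the Mef2a start site peak is the MEF2 consensus.
Mef2c intron 4, 98.2 kb, chr13:83741151-83741257: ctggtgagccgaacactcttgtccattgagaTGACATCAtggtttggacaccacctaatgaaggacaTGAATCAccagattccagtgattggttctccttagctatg
Mef2a intergenic, −58.4 kb, chr7:74576058-74576197: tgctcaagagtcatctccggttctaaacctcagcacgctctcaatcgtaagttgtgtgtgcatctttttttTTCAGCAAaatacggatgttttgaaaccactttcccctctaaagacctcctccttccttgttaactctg
Mef2a intergenic, −52.9 kb, chr7:74570591-74570775: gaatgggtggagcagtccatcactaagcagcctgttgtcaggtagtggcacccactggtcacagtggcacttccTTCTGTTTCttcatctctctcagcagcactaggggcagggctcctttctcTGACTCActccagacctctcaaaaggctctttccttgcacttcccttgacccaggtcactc
Mef2c intron 3, 81.6 kb, chr13:83724610-83724726: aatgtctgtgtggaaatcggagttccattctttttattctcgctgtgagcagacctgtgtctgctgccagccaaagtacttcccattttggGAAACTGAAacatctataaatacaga
Mef2a start site, chr7:74517600-74517798: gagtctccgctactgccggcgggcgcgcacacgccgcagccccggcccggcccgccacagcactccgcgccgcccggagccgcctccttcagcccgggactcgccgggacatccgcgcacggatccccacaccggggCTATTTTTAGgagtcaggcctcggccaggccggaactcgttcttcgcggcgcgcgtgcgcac

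No sum of accessibility over the peaks of a gene passed the test between the populations. Per kb of peak, which allows genes to be compared within a table, untreated Mef2d had 422 ± 30.1 normalised tags in CD45.1 against 433 ± 40.7 in CD45.2 (SD, n = 3), and Mef2c had 416 ± 43.8 and 392 ± 36.0. Mef2a followed with 308 ± 12.7 and 333 ± 7.60, and Mef2b was lowest with 212 ± 65.4 and 233 ± 16.4. Mef2d and Mef2c lay within each other's spread. After LPS the order was Mef2d (200 ± 17.7 and 243 ± 30.5), Mef2c (174 ± 14.8 and 145 ± 35.5), Mef2a (138 ± 10.7 and 160 ± 21.95) and Mef2b (97.6 ± 17.4 and 127 ± 13.6), except that in CD45.2 Mef2a had the higher mean of the neighbours Mef2a and Mef2c, which lay within each other's spread. Levels of the untreated and the LPS table have separate scales and are not compared.

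Between the populations, no gene sum had a DESeq2 adjusted p under 0.05, against 7.35% of all tested genes higher in CD45.1 and 7.46% higher in CD45.2 in untreated mice, and 4.08% and 2.98% after LPS. None passed an unadjusted p under 0.05, and edgeR's quasi-likelihood test called none either. The log2 fold change of CD45.1 over CD45.2 was 0.09 for Mef2c (95% interval −0.108 to 0.288), −0.11 for Mef2a, −0.12 for Mef2b and −0.05 for Mef2d in untreated mice. After LPS it was 0.27 for Mef2c (−0.0721 to 0.612), −0.21 for Mef2a, −0.37 for Mef2b and −0.29 for Mef2d. The 3 CD45.1 and 3 CD45.2 libraries overlapped for Mef2b, Mef2c and Mef2d in untreated mice and for Mef2a and Mef2c after LPS. Without CD45.2 of LPS mouse 1, Mef2c passed (0.45, DESeq2 adjusted p 0.0414).

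**Figure D1:**
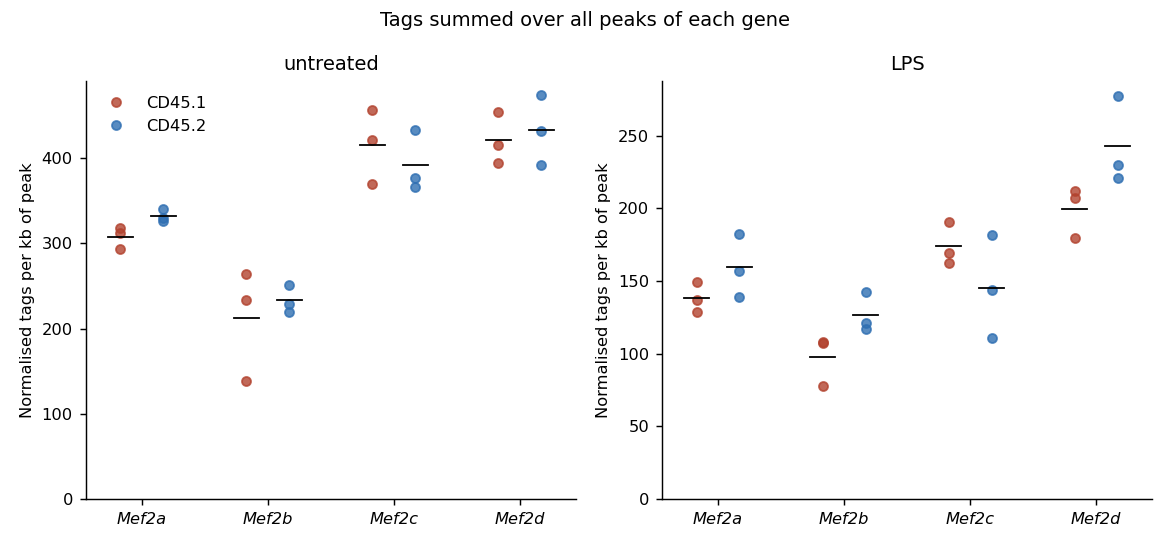
Normalised tags per kb of peak, summed over all peaks of each MEF2 gene, in each library (points) with the mean of 3 (line), for untreated mice (left) and after LPS (right), on separate scales. Untreated CD45.1 and CD45.2 means lie at 416 and 392 for Mef2c and at 212 and 233 for Mef2b, the gene with the lowest values.

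Peaks at the start sites of Mef2a, Mef2b and Mef2d held tags in both populations, and none passed the test. The Mef2d promoter peak held 180 ± 30.1 normalised tags in untreated CD45.1 and 168 ± 6.59 in untreated CD45.2 (log2 fold change 0.09, 95% interval −0.225 to 0.414, DESeq2 adjusted p 0.834). Of the 3 Mef2a promoter peaks, the strongest, at −414 bp, held 137 ± 7.44 and 173 ± 24.5 (−0.32, −0.642 to 0.00946, adjusted p 0.232), and its libraries did not overlap. The peak over the Mef2a start, which carries the MEF2 match, held 74.5 ± 20.2 and 69.9 ± 6.29 (0.08, −0.402 to 0.554). Peaks called by the authors in single libraries overlapped it in 0 of 3 CD45.1 and 3 of 3 CD45.2 libraries. The third, at −173 bp, was weak, at 8.82 ± 2.12 and 16.1 ± 3.12 (−0.84, −1.89 to 0.206). The promoter peak at Mef2b held 36.4 ± 10.8 and 47.7 ± 1.57 (−0.37, −0.965 to 0.222). After LPS the 5 promoter peaks had log2 fold changes from −1.01 to −0.04, and none passed.

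The strongest peaks of Mef2c and Mef2a did not pass either. In Mef2c it lay in intron 2 at 68.3 kb (chr13:83711267-83711437) and held 263, 303 and 235 normalised tags in untreated CD45.1 and 307, 260 and 281 in untreated CD45.2. After LPS it held 173, 164 and 98.1 against 152, 108 and 71.5. The libraries overlapped in both tables, and the log2 fold changes were −0.07 (SE 0.138) and 0.41 (SE 0.397). In Mef2a an intergenic peak at −89.2 kb (chr7:74606867-74607004) had the highest mean over the 6 libraries after LPS. In untreated mice that mean was like that of the promoter peak, which was lower in CD45.1 and higher in CD45.2. The intergenic peak held 161 ± 33.0 and 149 ± 6.39 tags (0.10, SE 0.177) and 86.7 ± 15.0 and 88.6 ± 13.4 after LPS (−0.03, SE 0.234).

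**Figure D2:**
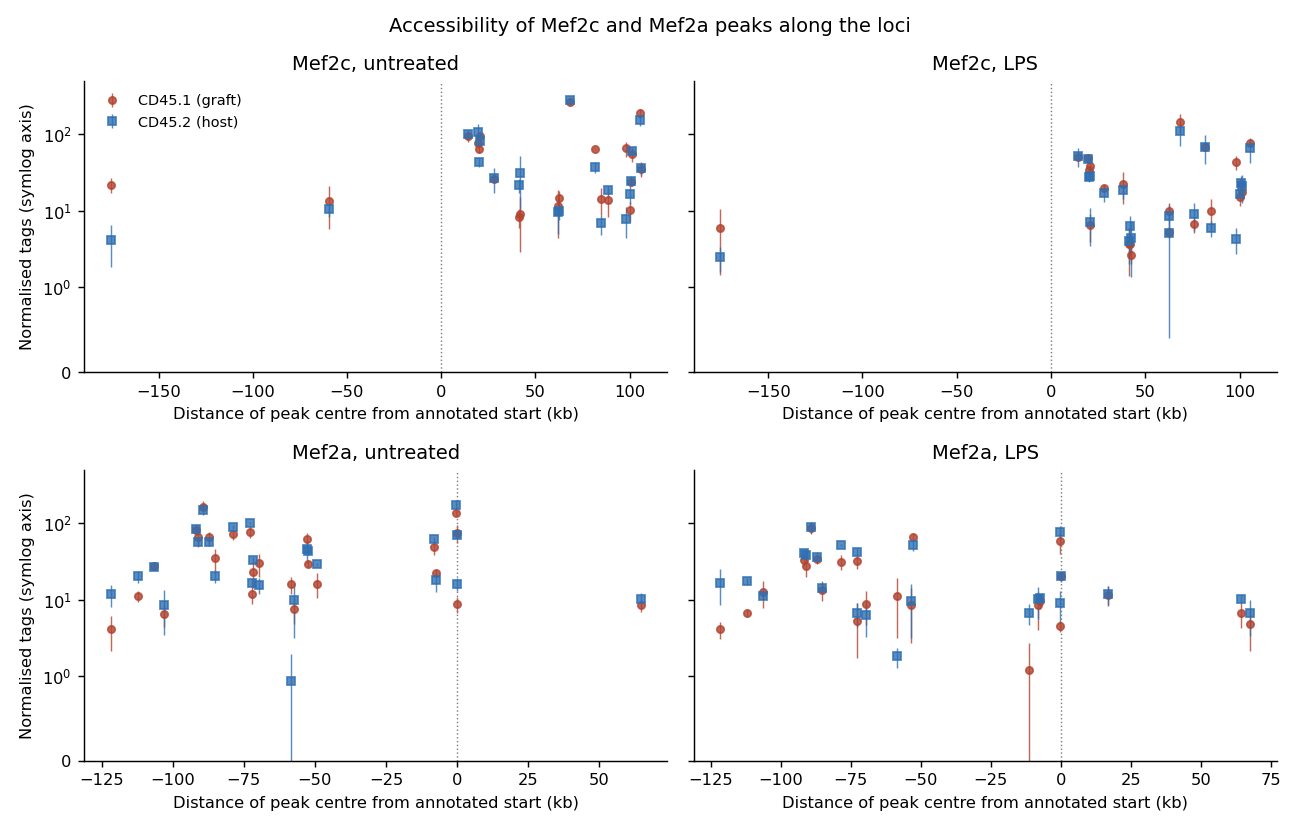
Normalised tags (mean ± SD, n = 3) of each Mef2c (top) and Mef2a (bottom) peak by its distance in kb from the annotated start site, untreated (left) and after LPS (right). The axis is logarithmic above 1 and linear below, and 1 Mef2c LPS peak at −389.5 kb is left out. CD45.1 and CD45.2 lie close together at most peaks, and far apart at the Mef2c 98.2 kb and Mef2a −58.4 kb peaks.

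Single peaks within these loci did differ, in both directions. Of 55 untreated peaks, all tested, 4 were higher in CD45.1 and 2 were higher in CD45.2 at an adjusted p under 0.05, against 8.54% and 6.32% of all 59170 tested peaks. Of the 6, 3 also passed an adjusted p under 0.01 and a 4-fold difference, against 6.43% of all peaks. As shares of 55, these DESeq2 counts are near or below the background. With edgeR the counts were 7 and 8, against 12.2% and 10.7% of all peaks. The median log2 fold change of the 55 peaks was −0.06, and that of all tested peaks 0.001. After LPS, 49 of 53 peaks were tested, and 1 was higher in CD45.1 (background 4.08%) and 1 in CD45.2 (background 2.38%), of which 1 passed the stricter rule (background 2.97%). With edgeR the counts were 2 and 3, against 7.35% and 4.67% of all peaks. The median over these 49 was −0.09, against −0.008 for all.

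**Figure D3:**
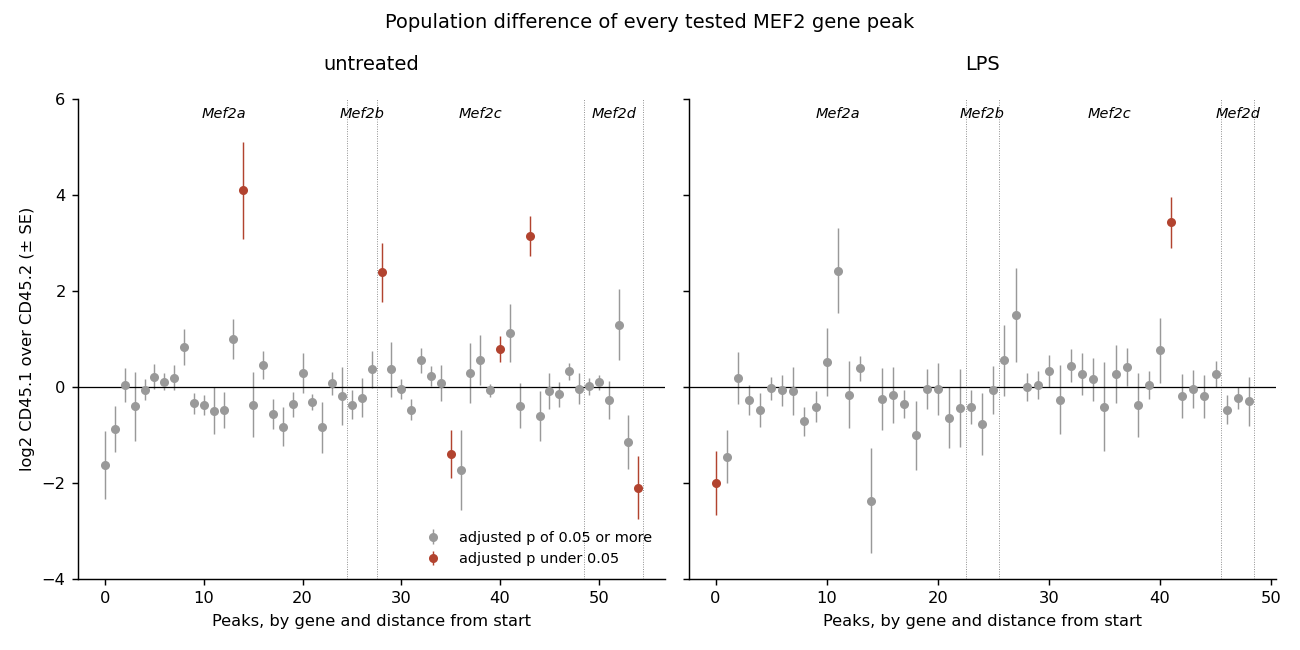
Log2 fold change of CD45.1 over CD45.2 (± SE) of every tested MEF2 gene peak, ordered within each gene by distance from the start site, in untreated mice (left, 55 peaks) and after LPS (right, 49 peaks). Red points have an adjusted p under 0.05, 6 in untreated mice and 2 after LPS.

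The peak in Mef2c intron 4, at 98.2 kb, was the clearest difference. It held 56.9, 57.5 and 82.8 normalised tags in untreated CD45.1 and 10.7, 8.90 and 4.06 in untreated CD45.2, and every graft library lay above every host library. The fold was 8.83 (log2 fold change 3.14, SE 0.416, DESeq2 adjusted p 1.31e-11). After LPS it held 33.1, 50.2 and 46.2 against 6.13, 3.92 and 2.97, again without overlap (3.44, SE 0.530, adjusted p 5.37e-08). After LPS only CD45.1 libraries exceeded the count for testing, so there the peak was admitted by its higher group. The peaks called by the authors in single libraries overlapped it in 3 of 3 CD45.1 and 0 of 3 CD45.2 libraries in both treatments. Here and below, such calls rest on the same tags and are no separate evidence. The untreated Mef2a start peak was split as 0 and 3 although its tags did not differ. The 98.2 kb peak kept its call with every alternative. When each library was left out, its log2 fold change stayed between 2.78 and 3.40 in untreated mice and between 3.14 and 3.73 after LPS. The peak 7.4 kb further into intron 4, at 105.6 kb, held 190 ± 26.8 against 153 ± 25.02 tags in untreated mice and did not pass (0.32, SE 0.171, adjusted p 0.234).

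A weaker intergenic peak at −58.4 kb from Mef2a was nearly empty in host microglia. Untreated CD45.1 libraries held 20.1, 15.5 and 12.0 normalised tags, and CD45.2 libraries held 0, 0.774 and 2.03. Over the 3 libraries this is 49.5 against 3.5 raw tags, a ratio of 14.4. An exact 95% interval, taken on tags rounded to whole numbers, was 4.66 to 48.4 and covers counting error only. DESeq2 gave a log2 fold change of 4.09 (SE 1.01, adjusted p 0.000805). In both tables only CD45.1 libraries exceeded the count for testing, so the peak was admitted by its higher group. Without CD45.2 of mouse 6 the log2 fold change was 4.89, and without each other library 3.74 to 4.27. After LPS the values were 19.8, 8.48 and 4.72 against 1.75, 1.31 and 2.38, without overlap, but the test did not pass (2.42, SE 0.880, adjusted p 0.0772). Own peaks overlapped it in 3 of 3 untreated and 1 of 3 LPS libraries of CD45.1, and in no CD45.2 library.

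An intergenic peak at −175.4 kb from Mef2c (chr13:83467531-83467683) also stood higher in untreated CD45.1. It held 16.8, 26.9 and 22.3 tags against 4.92, 1.55 and 6.09, without overlap (2.39, SE 0.612, adjusted p 0.00142). Again only CD45.1 libraries exceeded the count for testing. Without CD45.2 of mouse 5 the adjusted p was 0.0647. After LPS the peak was shallow, with 1.21, 6.52 and 10.4 tags against 3.50, 2.18 and 1.78, and the libraries overlapped (1.49, SE 0.980, adjusted p 0.522).

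The Mef2c intron 3 peak at 81.6 kb differed by less, with 66.2, 62.1 and 63.2 tags in untreated CD45.1 and 40.1, 30.2 and 41.8 in untreated CD45.2 (0.79, SE 0.272, adjusted p 0.0290). The call was lost with the mouse as a replicate block (adjusted p 0.139), with total tags (0.279), and without any of the untreated CD45.1 libraries or the CD45.2 library of mouse 5 or 6 (0.0776 to 0.302). After LPS the libraries overlapped, at 64.7, 67.2 and 72.7 against 99.8, 65.0 and 43.3 (0.04, SE 0.285, adjusted p 0.977).

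The 2 untreated peaks higher in CD45.2 lay inside gene bodies. A peak in Mef2c intron 2 at 41.3 kb (chr13:83684229-83684373) held 6.06, 10.5 and 8.17 tags in graft cells against 18.8, 27.1 and 19.1 in host cells (−1.40, SE 0.504, adjusted p 0.0385). A peak over exon 4 of Mef2d at 15.7 kb (chr3:87961950-87962044) held 2.33, 5.02 and 3.81 against 13.1, 20.9 and 15.4 (−2.10, SE 0.655, adjusted p 0.0125). At the Mef2d peak only host libraries exceeded the count for testing. Neither pair of groups overlapped, and with a replicate block neither passed (adjusted p 0.151 and 0.0640). The Mef2c call was also lost without any 1 untreated CD45.1 library or the CD45.2 library of mouse 5 or 6 (0.0628 to 0.335), and the Mef2d call without the CD45.1 library of mouse 4 or the CD45.2 library of mouse 5 or 6 (0.0768 to 0.193). After LPS no Mef2d peak was called at exon 4, and the Mef2c peak held at most 6.23 tags in any library.

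**Figure D4:**
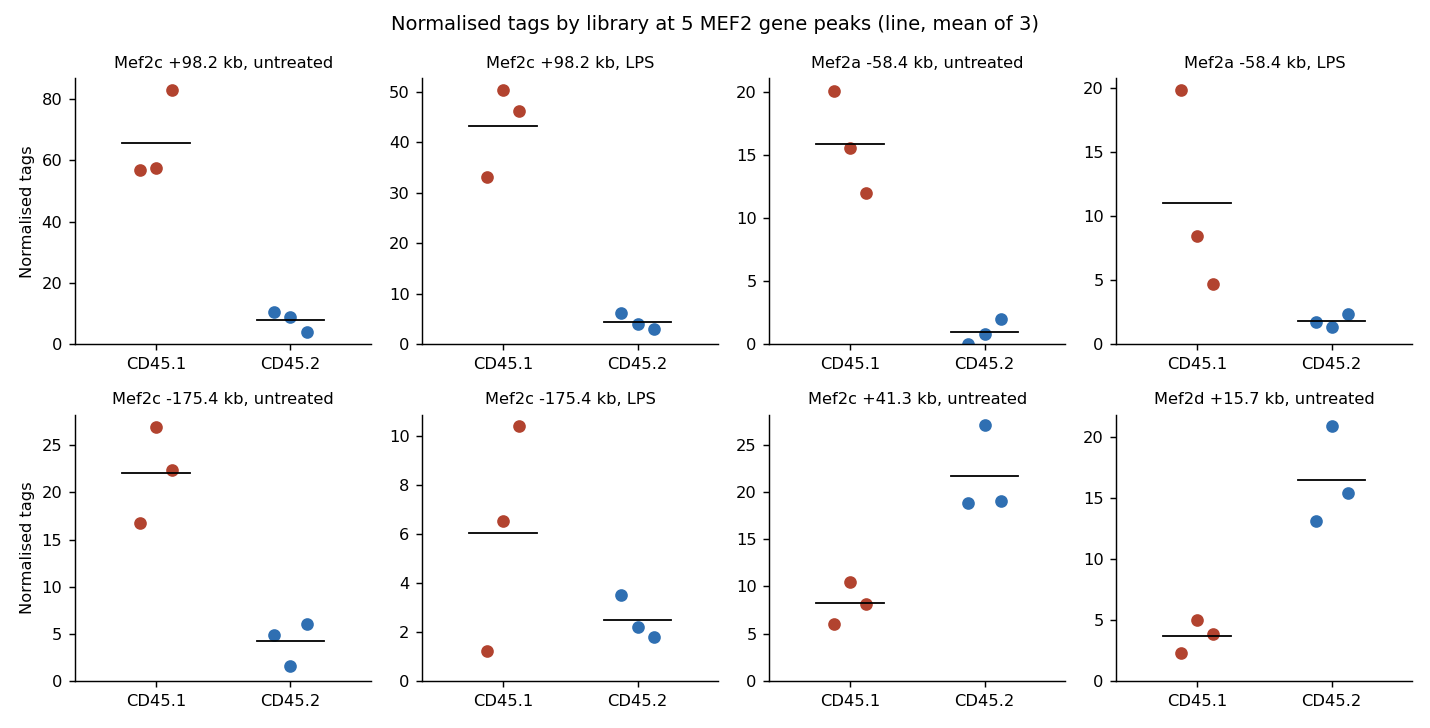
Normalised tags in each library (points) with the mean of 3 (line) at 5 MEF2 gene peaks, each panel on its own scale from 0. At the Mef2c 98.2 kb peak CD45.1 libraries hold 33.1 or more tags and CD45.2 libraries 10.7 or fewer, and at the Mef2c −175.4 kb peak the groups overlap after LPS.

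After LPS 1 Mef2a peak was higher in host cells, the furthest upstream. This peak at −121.7 kb (chr7:74639339-74639553) held 3.23, 5.22 and 3.77 tags in graft cells against 24.5, 17.01 and 8.31 in host cells, without overlap (−2.01, SE 0.670, adjusted p 0.0446). Own peaks overlapped it in 0 and 3 libraries, and it exceeded the count for testing in host libraries alone. Its call was lost with a replicate block (adjusted p 0.179) and without each of CD45.1 mice 1, 2 and 3 and CD45.2 mice 1 and 2 (0.117 to 0.297). In untreated mice the matching peak held 5.597, 1.82 and 4.90 against 9.01, 16.2 and 10.1 (−1.63, SE 0.712, adjusted p 0.115). The neighbouring peak at −112.1 kb held 6.58 ± 0.704 against 17.5 ± 1.82 after LPS (−1.46, SE 0.555, adjusted p 0.100), and that at −106.5 kb held 12.65 against 11.2 (0.19, adjusted p 0.932).

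To compare the treatments, 39 MEF2 peaks were matched between the tables by a reciprocal overlap of at least 50%, 17 of Mef2a, 16 of Mef2c and 3 each of Mef2b and Mef2d. No matched peak was called for an interaction of population and treatment, against 0.242% of all 39235 tested, and 5 of the 39 had no adjusted p. The smallest unadjusted p was 0.0545 with DESeq2, and 5 peaks had an unadjusted p under 0.05 with edgeR, which also called none after adjustment. The share of all matched peaks under that unadjusted p is not given, so the 5 are not read as a result. Among the 38 peaks tested in both tables, the log2 fold change of CD45.1 over CD45.2 had a Pearson r of 0.88 between untreated and LPS mice, and 0.77 without the 2 peaks of largest change. The points share the libraries of each table, and r is given as a description.

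Within each population, LPS against untreated was called at over 2-fold with an adjusted p under 0.05. In CD45.1, 5 of the 39 were higher (background 6.77%) and 1 was lower (4.98%), and in CD45.2, 5 were higher (7.68%) and 1 was lower (3.70%). Treatment and table go together, because peaks were called and counted separately for each. Peaks were also wider in the LPS table at 30 of 39, with a median of 165 against 144 bp, and a wider peak collects more tags. Over all peaks the median width was 132 bp untreated and 167 bp after LPS. Factors multiplied by peak width are used below as an alternative. Their size factors came from tags that already held this general widening, so part of it is taken out again. That lowers rises and favours falls.

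The intergenic Mef2a peak at −52.9 kb rose in both populations, and its width hardly differed between the tables (185 and 177 bp). On the scale of the matched peaks, CD45.1 libraries held 44.2, 31.8 and 46.6 tags untreated and 87.3, 106 and 100.0 after LPS (log2 difference 1.25, SE 0.246, DESeq2 adjusted p 1.39e-05). CD45.2 libraries held 36.5, 18.97 and 35.7 and then 84.5, 75.2 and 63.0 (1.30, SE 0.262, adjusted p 2.2e-05). No LPS library lay as low as an untreated library of the same population. With the factors multiplied by peak width the differences were 1.31 and 1.36, both past the test.

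The other intergenic Mef2a peak that moved in both populations, at −8.0 kb, fell. It held 24.6, 36.1 and 35.5 tags in untreated CD45.1 and 19.3, 7.77 and 9.79 after LPS (−1.34, SE 0.397, adjusted p 0.00687), and 37.5, 44.5 and 43.4 and then 11.4, 22.1 and 10.5 in CD45.2 (−1.51, SE 0.374, adjusted p 0.000894). Both passed with the width factors, at −1.01 and −1.18, but those factors favour falls. In CD45.1 the call was lost with total tags (adjusted p 0.0706) and without the LPS library of mouse 2 or 3 (0.0597 and 0.0667).

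The Mef2c intron 3 peak at 81.6 kb, which stood higher in untreated graft cells, rose in both populations. CD45.1 libraries went from 44.2, 41.6 and 41.6 tags to 93.8, 100.1 and 108 (1.25, SE 0.246, adjusted p 1.52e-05). CD45.2 libraries went from 26.7, 20.6 and 28.3 to 144, 94.1 and 63.9 (1.94, SE 0.263, adjusted p 2.82e-11). The difference of the 2 responses was −0.69 (SE 0.360, adjusted p 0.915). This peak was 117 bp wide in the untreated and 186 bp in the LPS table, and with factors multiplied by width the rise was 1.27 in CD45.2 (adjusted p 6.88e-05) and 0.58 in CD45.1, where it did not pass (0.0706).

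In Mef2d intron 1 the peak at 6.9 kb (chr3:87953093-87953220) was called in both populations, and its untreated values were uneven. CD45.2 libraries rose from 1.63, 4.48 and 3.02 tags to 25.2, 22.7 and 31.5 (2.98, SE 0.592, adjusted p 1.47e-05), which held for width (2.41). CD45.1 libraries held 4.36, 3.98 and 16.5 and then 9.96, 19.4 and 37.8, and overlapped (1.46, SE 0.527, adjusted p 0.0321). In CD45.1 the call was lost with the width factors (0.88), and without CD45.1 of untreated mouse 4 or 5 or LPS mouse 2 or 3 (0.79 to 1.54). Without CD45.1 of untreated mouse 6 the difference was 2.46.

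Of the remaining calls, the Mef2c intron 4 peak at 100.3 kb was higher after LPS in CD45.1 (1.63, adjusted p 0.00243) and CD45.2 (1.20, adjusted p 0.0224), and neither held for width (0.84 and 0.41), the peak being 95 bp wide untreated and 164 bp after LPS. The CD45.2 call was also lost without the untreated library of mouse 5 or 6 or the LPS library of mouse 2 or 3 (1.03 to 1.19). The intron 4 peak at 100.8 kb passed in CD45.1 (1.06, adjusted p 0.0124) and fell short of 2-fold in CD45.2 (0.98, adjusted p 0.0244). The CD45.1 call was lost with width (0.49) and without the untreated library of mouse 5 or the LPS library of mouse 3 (0.99 and 0.92). The Mef2a peak at −121.8 kb passed in CD45.2 (1.47, adjusted p 0.0258) and not in CD45.1 (1.17, adjusted p 0.238), and the difference of the responses was −0.30 (adjusted p 0.997). The CD45.2 call was lost with width (1.25) and without the untreated library of mouse 4 or 6 or the LPS library of mouse 1 or 2 (1.17 to 1.41). The graft-high Mef2c peak at 98.2 kb passed in neither (0.53, adjusted p 0.193, and 0.18, adjusted p 0.867).

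**Figure D5:**
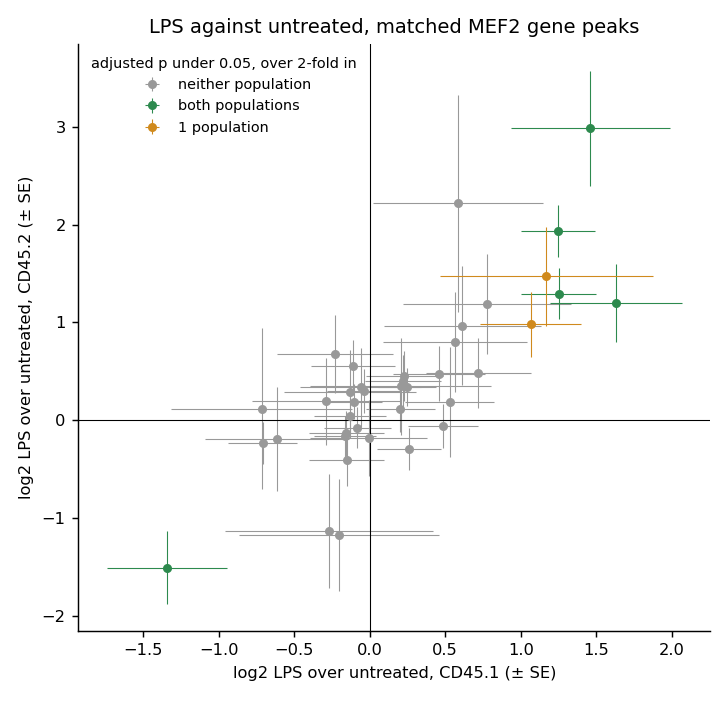
Log2 LPS over untreated (± SE) in CD45.1 (horizontal) and CD45.2 (vertical) of the 39 matched MEF2 gene peaks. Green points passed in both populations, 4 above 0 and 1, the Mef2a −8.0 kb peak, below, and orange points passed in 1.

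Sequence motifs were counted in the member peaks and in all peaks as deposited. TGANTCA was found in 10.9% of untreated MEF2 peaks and 6.23% of all, and in 20.8% and 12.6% after LPS. TGANNTCA was found in 14.6% and 6.56%, and in 15.1% and 8.58% after LPS. Shares for IRF (GAAANNGAA) were 16.4% and 6.11%, and 11.3% and 6.51% after LPS, and those for CEBP (TTGCNNAA) 12.7% and 7.12%, and 15.1% and 10.95%. The MEF2 consensus was in 2 of 55 untreated (3.64% against 1.27%) and 3 of 53 LPS peaks (5.66% against 1.42%). PU.1 (GAGGAAGT) was in 3.64% against 8.57%, and 5.66% against 8.27%, and RUNX (TGTGGTT) in no member peak against 4.12% and 5.05%. In 200 bases around the peak centre RUNX was in 5.45% of untreated members against 5.65% of all peaks. After LPS it was in 0% against 5.82% there. SP and KLF (GGGCGGG) and CTCF (AGGGGGC), which can overlap each other, were in 10.9% against 13.06% and 7.27% against 7.36% of untreated peaks, and in 11.3% against 15.0% and 7.55% against 7.85% after LPS. Both strands were searched, and members of 1 locus share a neighbourhood, so the shares are a description.

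Genes that act on MEF2 proteins were read as gene sums from a list of 29, of which 26 had peaks and were tested in each table. In untreated mice 2 of 26 were higher in CD45.1 and 0 in CD45.2, against 7.35% and 7.46% of all genes, so the count is near the background. Hdac7, a class IIa deacetylase that represses MEF2, held 158, 153 and 173 tags in graft cells against 91.5, 85.1 and 93.9 in host cells, without overlap (0.84, SE 0.178, DESeq2 adjusted p 4.17e-05). Mapk14, the p38 kinase, held 316, 328 and 393 against 232, 264 and 257 (0.45, SE 0.133, adjusted p 0.00677). Scaled to total tags neither passed (adjusted p 0.233 and 1), and Mapk14 did not pass without the graft library of mouse 6 or the host library of mouse 4 or 6 (0.0546 to 0.0883). After LPS no regulator passed with DESeq2 (3 at an unadjusted p under 0.05) or with edgeR. Hdac7 held 121, 105 and 93.2 against 60.8, 69.5 and 83.0 (0.56, SE 0.231, adjusted p 0.148) and Mapk14 had a difference of −0.23 (adjusted p 0.755). The median over the 26 was 0.00 in untreated mice and −0.05 after LPS, against −0.001 and −0.012 over all genes.

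Likeness over the 12 libraries was read from gene sums over matched peaks, among 6340 genes with at least 2 matched peaks and a mean no lower than that of the lowest MEF2 gene. Mef2c was most like Cblb (r = 0.964), Abcb1b and Tmem126b. Mef2a was most like Sowahc (0.901), Usf2 and Chsy1, Mef2b most like Lrrc3 (0.915), 4933406J10Rik and Ephb3, and Mef2d most like Wsb1 (0.915), Morn3 and Ythdf2. The libraries share depth and treatment, and the median r over all genes was 0.215 for Mef2c, 0.125 for Mef2a, 0.058 for Mef2b and −0.119 for Mef2d.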

How the data were processed

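ATAC-seq libraries of 12 samples were used. Per the labels, bcl2fastq 2.17.1.14, Bowtie2, Picard 1.108, HOMER and mm9 appear in the submitters' processing notes. The authors called peaks in each library with HOMER, merged the 6 lists of a treatment and deposited unnormalised tags per merged peak, which are estimated counts in steps of 0.5 tag. The HOMER score deposited in the lists of single libraries was not used, only their coordinates. No column belonged to another sample.

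Counts were rounded and tested per table with DESeq2 1.42.0 (R 4.3.3, Wald test, median-of-ratios size factors), the package that the study names. Peaks where any library exceeded a count of 10 were tested, 59170 and 49180, with Benjamini-Hochberg adjustment over all of them. The study also filtered peaks by their reproducibility between replicates, and that step was not applied here. Normalised tags are counts divided by size factors, which differ between the 2 tables and the matched peaks. The fits were also run on simulated data with planted changes, independent libraries and 1 fixed level of spread, which does not cover the pairing of mice. Planted interactions in the matched peaks were recovered less often than planted population differences in the peak tables. edgeR 4.0.16, a replicate block, total-tag factors, other filters, peak width, a stricter overlap and leaving out each library were alternatives. Fold changes are unshrunken, and n is 3 mice.

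Both populations came from the same mouse, so the mouse numbers pair the libraries. Deviations from group means correlated at 0.081 to 0.087 within untreated mice and −0.066 to 0.149 within LPS mice. For the populations of different mice these values were −0.102 to 0.001 and −0.159 to 0.117. The main fits left the pairing out, and the replicate block used it. Replicate libraries differed by more than sampling noise (chi-square per degree of freedom 1.21 to 2.32).

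Coordinates are those of the files on mm9. The reference genome NCBIM37 with GENCODE vM1 has that build, and 98.8% of promoter peaks lay within 1500 bp of a start of their symbol. Named peaks were promoter peaks, the strongest peak per gene and table, and all with an adjusted p under 0.05. Peaks called for LPS against untreated were named outside that rule, and the −112.1 kb, −106.5 kb and 105.6 kb peaks were chosen after their values were seen. The members and lists were chosen with earlier results of these data known. Some marker genes are not reported here.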

Additional observations from a re-analysis of the deposited data

How the results depend on the processing

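Under the alternatives no called result reversed its direction. Of the gene sums, none of them called in untreated mice, Mef2b turned from −0.12 to 0.10 without CD45.1 of mouse 6 and Mef2d from −0.05 to 0.02 without CD45.2 of mouse 5. With edgeR, 7 untreated peaks were higher in CD45.1 and 8 in CD45.2, against 12.2% and 10.7% of all peaks. After LPS edgeR called 2 and 3, against 7.35% and 4.67%. In untreated mice it called 4 of 26 regulators. That count and those that follow have no share over all features in the same setting. They are read only beside the main counts. With a replicate block 1 untreated peak, neither of those described, and 0 LPS peaks were higher in CD45.2. With factors from total tags these were 1 and 0, no regulator differed (0), and 3 peaks were higher after LPS in each population and 0 lower in CD45.1. A mean count of at least 20 left 1 peak over 4-fold, 2 higher in CD45.1 and 0 in CD45.2 in untreated mice, 0 in CD45.2 after LPS, and 3 and 2 peaks higher after LPS in CD45.1 and CD45.2. Without a filter 0 LPS peaks were higher in CD45.2. With peak width, 1 and 3 peaks were higher after LPS in CD45.1 and CD45.2 and 2 lower in CD45.1. Matching at 80% kept 11 pairs, with 1 higher in each population and 0 lower. Leaving out each library gave, in untreated mice, 1 to 3 peaks over 4-fold, 2 to 4 higher in CD45.1, 0 to 2 higher in CD45.2 and 1 to 3 regulators. The lowest counts over 4-fold and higher in CD45.1 came without CD45.2 of mouse 5. A count of 0 higher in CD45.2 was reached without CD45.1 of mouse 4. After LPS leaving out each library gave 0 to 1 peaks higher in CD45.2 and 0 to 1 gene sums. Against untreated it gave 3 to 5 higher in each population and 0 to 1 lower in CD45.1. The cause was not tested. The block could not be fitted to LPS against untreated, since each mouse had 1 treatment, and with it 2 untreated peaks passed 4-fold, 3 were higher in CD45.1 and 0 had an interaction.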
